A study of Mus musculus with 16 samples.

Results

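TBK1 is a serine/threonine kinase of innate immune signalling, and the genes described here are Tbk1, its close relative Ikbke and the proteins that scaffold, recruit or receive their activity. The list holds 10 genes: Tbk1, Ikbke, Tank, Azi2, Tbkbp1, Mavs, Ticam1, Irf3, Sqstm1 and Optn. For each gene the probe sets whose platform symbol names that gene alone were taken, and the one of highest mean signal was used. By this rule 9 of the 10 were measured, Optn was not analysed here, and all 9 were among the 13152 genes kept for testing. Each of the 9 lay above its array's filter level on 16 of 16 arrays.

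Total RNA from the liver of mice of strain 129 was hybridised to Affymetrix whole-transcript arrays, 1 array per sample. The 4 genotypes, with 4 arrays apiece, were wild type, Sav1+/-, Rassf1a-/- and Rassf1a-/- Sav1+/-, the last called the double genotype here. Rassf1a is a tumour suppressor isoform of Rassf1, and Sav1 encodes the scaffold of the Hippo kinases. The title of the study ties Rassf1a loss to Tbk1, so the comparisons ask whether transcripts of the kinase and its partners differ with each genotype. Both alleles are described in the labels by gene name only. The sources used here do not give sex, age, time of day or how the alleles were made, nor say if each sample came from its own animal. P-values therefore measure the spread between these samples, which may be technical. Replicate numbers only name samples. Liver was measured in bulk, so fewer cells of a type and less RNA per cell cannot be told apart.

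In the textbook account, RNA sensors act through MAVS and Toll-like receptors through TRIF, the product of Ticam1, to activate TBK1 and IKK epsilon, the product of Ikbke. TANK, NAP1 (Azi2) and SINTBAD (Tbkbp1) are alternative scaffolds that bind the kinases. The kinases phosphorylate IRF3, which then induces interferon and interferon-like genes, and they also phosphorylate the autophagy receptors p62 (Sqstm1) and optineurin (Optn). In liver, p62 accumulates when autophagy is impaired and is known for its tie to the KEAP1 and NRF2 stress response.

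RefSeq (GRCm38.p6) promoter windows are shown for Tbk1 and for the 3 members with the smallest p in the Rassf1a comparisons below, Ikbke, Sqstm1 and Ticam1. Each window is the 250 bases before the annotated start, read 5′ to 3′ on the gene's own strand, which is the minus strand for all 4. Capitals mark the GC box GGGCGG or its reverse complement and the E-box CACGTG. The windows lie at chr10:121586795-121587044 (Tbk1), chr1:131279564-131279813 (Ikbke), chr11:50210821-50211070 (Sqstm1) and chr17:56276768-56277017 (Ticam1).
Tbk1: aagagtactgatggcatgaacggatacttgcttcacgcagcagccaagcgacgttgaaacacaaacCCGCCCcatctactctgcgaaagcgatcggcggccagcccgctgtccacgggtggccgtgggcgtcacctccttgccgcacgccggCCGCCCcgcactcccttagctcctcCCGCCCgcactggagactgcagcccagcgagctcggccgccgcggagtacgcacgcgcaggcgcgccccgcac
Ikbke: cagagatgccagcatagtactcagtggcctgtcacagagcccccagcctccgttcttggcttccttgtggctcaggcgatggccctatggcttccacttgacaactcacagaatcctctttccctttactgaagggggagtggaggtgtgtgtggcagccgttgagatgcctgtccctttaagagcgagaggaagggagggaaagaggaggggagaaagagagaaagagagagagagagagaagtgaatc
Sqstm1: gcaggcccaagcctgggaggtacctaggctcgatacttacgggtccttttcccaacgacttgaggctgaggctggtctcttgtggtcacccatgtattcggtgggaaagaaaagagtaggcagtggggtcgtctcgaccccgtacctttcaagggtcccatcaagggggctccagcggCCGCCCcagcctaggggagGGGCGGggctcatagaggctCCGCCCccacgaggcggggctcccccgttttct
Ticam1: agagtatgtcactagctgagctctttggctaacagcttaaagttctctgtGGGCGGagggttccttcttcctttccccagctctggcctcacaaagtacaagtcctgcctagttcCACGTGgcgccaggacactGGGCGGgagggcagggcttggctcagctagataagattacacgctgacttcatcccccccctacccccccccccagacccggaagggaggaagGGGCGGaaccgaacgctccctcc

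The windows of Tbk1, Sqstm1 and Ticam1 each held 3 GC boxes, while that of Ikbke held 0. A GC box on either strand was present in 32.7% of 32851 RefSeq windows of the same length. G and C made up 68.4% of the Tbk1 window, 63.2% for Sqstm1, 59.6% for Ticam1 and 54.4% for Ikbke, against a median of 52.4% over all windows. The E-box, the letters recognised by clock and MYC family factors, occurred once in the Ticam1 window, 135 bases before the start, and in 6.02% of all windows. The core letters of the antioxidant response element, TGACNNNGC, were in 0 of these 4 windows and in 10.2% of all windows. All motifs were searched on both strands, overlapping matches were counted, and a match describes letters only.

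Array-wide facts bear on several values. Array medians ran from 7.20 to 7.51 log2 units, and across genes, which are not independent replicates, the median Pearson r was 0.963 between arrays of 1 genotype and 0.960 between genotypes. Sav1 averaged over both Rassf1a states fell by 0.93 on the log2 scale in Sav1+/- livers (limma adjusted p = 0.0113), while the Rassf1 probe set, at -0.10 for the averaged Rassf1a effect, may lie outside the lost isoform and checks nothing. Signal of Y-linked genes was high on 5 arrays: Rassf1a-/- replicate 2, Sav1+/- replicates 3 and 4, and double genotype replicates 1 and 2. Xist signal ran from 2.12 to 4.31 on these 5 arrays and from 10.3 to 11.5 on the 11 others. No wild-type array was among the 5. Of 11 measured clock genes, 8 were called in Rassf1a-/- livers and 9 in the double genotype against wild type, and 0 in Sav1+/- livers. All 6 hepatocyte markers (Alb, Apoa1 and others) were measured, with an array mean of 13.1 to 13.4. Array weights estimated by limma were lowest for Sav1+/- replicates 1 (0.279) and 2 (0.276).

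None of the 9 members passed the test (limma, Benjamini-Hochberg adjusted p under 0.05) in any of 6 comparisons. The largest member values were for Ikbke, at +0.66 in the double genotype against wild type and +0.53 for Rassf1a loss averaged over the Sav1 states. In the same comparisons Sqstm1 was +0.29 and +0.27, and Ticam1 +0.25 and +0.31. Tbk1 itself lay at -0.02 and -0.11. The clearest value in the pathway belonged to Dtx4, a ubiquitin ligase that is known to be brought to TBK1 by NLRP4 for its degradation. Dtx4 rose 2.03-fold with Rassf1a loss averaged over the Sav1 states and was the only called gene among the 71 tested pathway genes outside the members. For that averaged effect 2.23% of all genes were called.

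**Figure D1:**
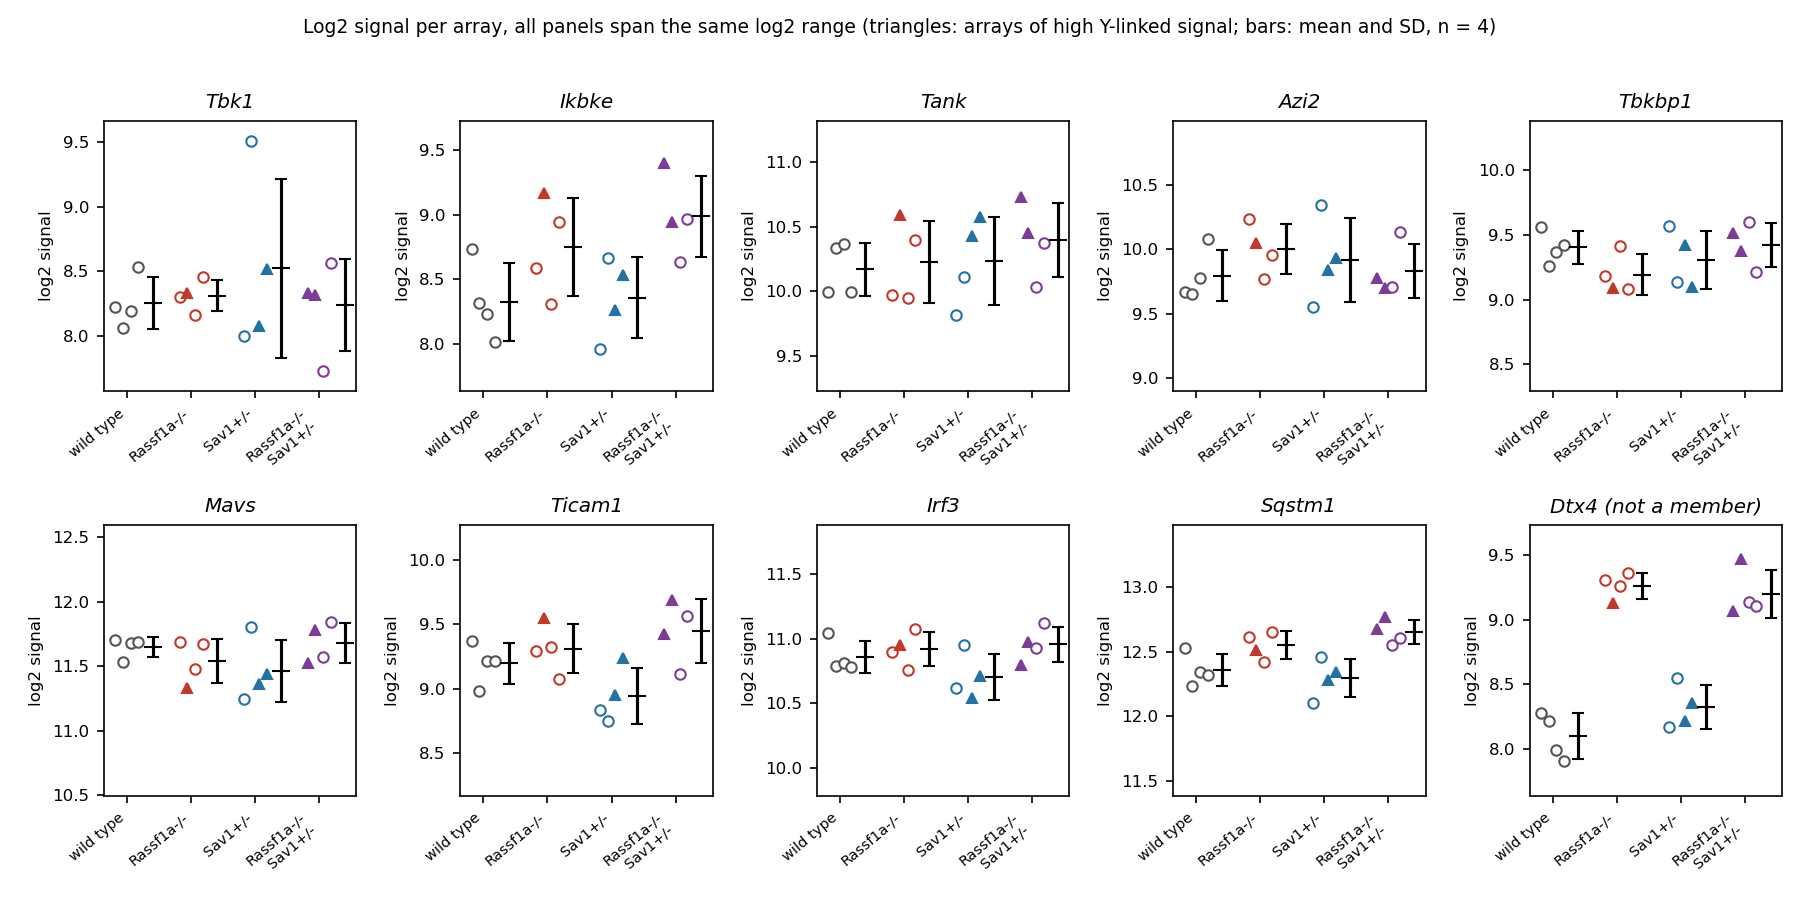
Log2 signal of the 9 measured members and of Dtx4 on each of the 16 arrays, by genotype, with the mean and SD of 4 arrays beside the points and triangles for the 5 arrays of high Y-linked signal. Panels share 1 span of log2 units but differ in offset. The Dtx4 arrays without Rassf1a (9.07 to 9.47) lie apart from the others (7.90 to 8.55), while the genotypes of Tbk1 overlap and Sav1+/- replicate 2 stands at 9.51.

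The members' counts can be read against all genes. In Rassf1a-/- livers against wild type 0 of 9 members were called and 0.700% of the 13152 genes were. At an unadjusted limma p under 0.05 the numbers were 0 of 9 members and 10.4% of genes. In Sav1+/- livers 0 of 9 members and 0% of genes were called (0 of 9 and 9.15% at an unadjusted p under 0.05). In the double genotype 0 of 9 members and 0.821% of genes were called (2 of 9, Ikbke and Sqstm1, and 13.6% at an unadjusted p under 0.05).

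For Rassf1a loss averaged over both Sav1 states 0 of 9 members were called, against 2.23% of genes. There, Ikbke, Sqstm1 and Ticam1 were the 3 of 9 at an unadjusted limma p under 0.05, against 15.3% of genes. For the averaged Sav1 effect 0 members and 0.0228% of genes were called (0 of 9 and 14.8% unadjusted). For the interaction, which asks whether the Rassf1a effect depends on Sav1, 0 members and 0% of genes were called (0 of 9 and 9.40% unadjusted). Member medians were +0.07, -0.06 and +0.10 in Rassf1a-/-, Sav1+/- and double genotype livers against wild type, beside -0.01, -0.02 and +0.05 over all genes. These 3 comparisons share their 4 wild-type arrays.

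Tbk1 (probe set 10372853) encodes the kinase at the centre of the group. Its log2 signals were 8.23, 8.06, 8.19 and 8.53 in wild-type livers and 8.30, 8.33, 8.16 and 8.45 in Rassf1a-/- livers. They were 8.002, 9.51, 8.07 and 8.52 in Sav1+/- livers and 8.33, 8.32, 7.73 and 8.57 in double genotype livers. The groups overlapped throughout, and the highest and lowest arrays were Sav1+/- replicate 2 and double genotype replicate 3.

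From lowest to highest, the Tbk1 means were 8.24 ± 0.36 in the double genotype, 8.25 ± 0.20 in wild type, 8.31 ± 0.12 in Rassf1a-/- and 8.53 ± 0.69 in Sav1+/- livers (log2 units, SD, n = 4). No neighbours in this order differed beyond their spread. The limma 95% intervals of the difference from wild type were -0.49 to 0.61 in Rassf1a-/-, -0.28 to 0.82 in Sav1+/- and -0.57 to 0.53 in double genotype livers. A doubling, 1 on the log2 scale, lies outside all 3 intervals. The averaged Rassf1a effect was -0.11 ± 0.18 (SE, adjusted p = 0.805), the averaged Sav1 effect +0.10 ± 0.18 (adjusted p = 0.805) and the interaction -0.35 ± 0.37 (adjusted p = 0.825). Without Sav1+/- replicate 2 the averaged Rassf1a effect turned to +0.05, the averaged Sav1 effect to -0.07, and the interaction was -0.02. That 1 array therefore set the sign of both averaged values.

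Ikbke (probe set 10357604) encodes IKK epsilon, the inducible relative of TBK1. Its log2 signals were 8.73, 8.32, 8.23 and 8.01 in wild-type livers and 8.59, 9.16, 8.31 and 8.94 in Rassf1a-/- livers. They were 7.96, 8.66, 8.26 and 8.54 in Sav1+/- livers and 9.40, 8.95, 8.63 and 8.97 in double genotype livers. Of the 8 arrays without Rassf1a, 5 lay above all 8 arrays that carry it, and the 2 sets overlapped between 8.31 and 8.73.

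The Ikbke means were 8.32 ± 0.30 in wild type, 8.35 ± 0.31 in Sav1+/-, 8.75 ± 0.38 in Rassf1a-/- and 8.99 ± 0.32 in double genotype livers (SD, n = 4). The averaged Rassf1a effect was +0.53 ± 0.15 (limma SE, 95% interval 0.21 to 0.85, unadjusted p = 0.00304, adjusted p = 0.0822). Against wild type Ikbke was +0.43 ± 0.22 in Rassf1a-/- livers (adjusted p = 0.511) and +0.66 ± 0.22 in double genotype livers (adjusted p = 0.174), and against Sav1+/- livers the double genotype was +0.63 ± 0.22 (adjusted p = 0.172). With array weights Ikbke passed for the averaged effect (+0.57, limma adjusted p = 0.0314), and the double genotype comparison passed too (+0.76, adjusted p = 0.0243). The averaged effect also passed without Rassf1a-/- replicate 3 (+0.60, adjusted p = 0.0452, 2.55% of genes called) or Sav1+/- replicate 2 (+0.58, adjusted p = 0.0466, 4.35%). Its adjusted p over all alternatives ran from 0.0314 to 0.488, the highest with the 5 high-Y arrays left out (+0.39).

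Sex-linked signal and markers of other liver cells were set beside Ikbke. Its high-Y arrays lay at 8.26 to 9.40 and the 11 others at 7.96 to 8.97, ranges that mix genotypes. A limma fit took the Y-linked mean as a term beside genotype. There, high-Y arrays had +0.33 ± 0.17 for Ikbke (SE, unadjusted p = 0.0689, adjusted p = 0.447). Cd79b, the only 1 of 4 listed B-cell markers kept by the filter, ran from 7.32 to 8.04 in wild type, 7.23 to 8.83 in Rassf1a-/-, 7.03 to 8.57 in Sav1+/- and 7.72 to 8.96 in double genotype livers, with an averaged Rassf1a difference of +0.48. The B-cell markers Cd79a and Ms4a1 were above the filter level on 0 and 1 of 16 arrays. The mean of the 8 Kupffer cell and macrophage markers ran from 9.35 to 10.3 in wild type, 9.07 to 9.96 in Rassf1a-/-, 9.44 to 10.9 in Sav1+/- and 9.74 to 10.6 in double genotype livers. Of these 8, 7 were positive in the double genotype against wild type (median +0.48), but 3 for the averaged Rassf1a effect (median -0.04). Over all genes 58.7% and 55.1% were positive in these comparisons. The highest of the 8 in the double genotype was Marco (+1.32), which was above the filter level on 5 of 16 arrays. The mean of the 6 endothelial markers ran from 9.44 to 9.79 in wild type, 9.46 to 10.03 in Sav1+/-, 9.50 to 10.2 in Rassf1a-/- and 9.81 to 10.2 in double genotype livers. All 6 were positive for the averaged Rassf1a effect (median +0.10). The lowest double genotype mean, 9.81, lay narrowly above the highest of wild type, 9.79. That order rests on Lyve1, which ran from 7.29 to 8.19 in wild type and from 8.36 to 9.30 in the double genotype. Single markers in the double genotype against wild type ran from -0.04 for Clec4g to +1.15 for Lyve1, which was above the filter level on 13 of 16 arrays. For the averaged Rassf1a effect the other lists had medians of +0.20 (5 stellate markers), +0.04 (3 of T and NK cells), -0.005 (6 of hepatocytes), -0.20 (1 of cholangiocytes) and -0.21 (2 of neutrophils). The part of any of these cell types in the Ikbke values was not tested.

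The scaffolds gave small values. Tank (probe set 10472289) measured 9.99, 10.33, 10.36 and 9.99 in wild-type and 9.97, 10.59, 9.94 and 10.39 in Rassf1a-/- livers. It measured 9.81, 10.11, 10.43 and 10.58 in Sav1+/- and 10.73, 10.45, 10.03 and 10.37 in double genotype livers. All genotypes overlapped, but the 5 arrays of high Y-linked signal (10.43 to 10.73) lay above the 11 others (9.81 to 10.39).

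That separation, higher without overlap, was seen in 1.03% of all genes. In a limma fit with the Y-linked mean as a term beside genotype, high-Y arrays had +0.44 ± 0.13 for Tank (SE, unadjusted p = 0.0037, adjusted p = 0.0714). By that term 0 of 9 members and 4.71% of genes were called, and 2 of 9, Tank and Ticam1, had an unadjusted limma p under 0.05, as did 13.3% of genes. Tank passed under some alternatives, with an adjusted p of 0.0360 after quantile normalization, 0.0367 without double genotype replicate 4 and at most 0.231, without Rassf1a-/- replicate 2. The Tank differences from wild type were +0.06 ± 0.20, +0.06 ± 0.20 and +0.23 ± 0.20 in Rassf1a-/-, Sav1+/- and double genotype livers (adjusted p = 0.919, 0.969 and 0.678). With Y-linked signal as a covariate all 3 turned negative, to -0.08, -0.19 and -0.0050.

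Azi2 (probe set 10589982), which encodes the scaffold NAP1, averaged 9.79 ± 0.20 in wild type, 9.83 ± 0.21 in the double genotype, 9.91 ± 0.33 in Sav1+/- and 10.002 ± 0.20 in Rassf1a-/- livers (SD, n = 4). Its arrays ranged from 9.55 to 10.34, both ends in Sav1+/- livers, and all genotypes overlapped. Rassf1a-/- livers stood +0.21 ± 0.17 over wild type (SE, limma adjusted p = 0.675), with values nearer to 0 in the other genotypes (+0.12 and +0.04).

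Tbkbp1 (probe set 10390336), which encodes SINTBAD, averaged 9.40 ± 0.13, 9.19 ± 0.16, 9.31 ± 0.23 and 9.43 ± 0.17 in wild-type, Rassf1a-/-, Sav1+/- and double genotype livers. Of the members it had the lowest value in Rassf1a-/- livers, -0.21 ± 0.14 (SE, limma adjusted p = 0.612), against +0.02 ± 0.14 in the double genotype (adjusted p = 0.966). Its arrays lay between 9.08 and 9.60, and the genotypes overlapped.

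Mavs (probe set 10476276), the mitochondrial adaptor of the RNA sensors, averaged 11.65 ± 0.08, 11.54 ± 0.17, 11.46 ± 0.24 and 11.68 ± 0.16 in the same order of genotypes. Its differences from wild type were -0.11 ± 0.14, -0.18 ± 0.14 and +0.03 ± 0.14 (SE, limma adjusted p = 0.782, 0.749 and 0.954). Sav1+/- replicate 2, the array with the highest Tbk1, also had the highest Mavs of its genotype, 11.81, beside 11.25 to 11.44 on the other 3.

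Ticam1 (probe set 10452022) encodes TRIF, the adaptor through which Toll-like receptors reach TBK1. Its log2 signals were 9.37, 8.98, 9.21 and 9.22 in wild-type and 9.29, 9.55, 9.32 and 9.08 in Rassf1a-/- livers. They were 8.83, 8.75, 8.95 and 9.24 in Sav1+/- and 9.42, 9.69, 9.11 and 9.56 in double genotype livers. Of the 8 arrays without Rassf1a, 4 lay above all 8 others, and the Sav1+/- arrays held the 3 lowest values.

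Averaged over Sav1 states, the Rassf1a effect on Ticam1 was +0.31 ± 0.11 (limma SE, unadjusted p = 0.0116, adjusted p = 0.157). It came with -0.25 ± 0.15 in Sav1+/- (adjusted p = 0.669) and +0.25 ± 0.15 in double genotype livers against wild type (adjusted p = 0.512). The double genotype stood +0.50 ± 0.15 over Sav1+/- livers (adjusted p = 0.129), while Rassf1a-/- stood +0.11 ± 0.15 over wild type (adjusted p = 0.788). The test of the difference between those last 2 values, the interaction, gave +0.39 ± 0.22 (adjusted p = 0.608). High-Y arrays had +0.26 ± 0.12 for Ticam1 (adjusted p = 0.344), and with Y-linked signal as a covariate the double genotype value was +0.12.

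Irf3 (probe set 10552812), the transcription factor that TBK1 phosphorylates, had the lowest SD among the members, 0.16 over the 16 arrays, with arrays from 10.54 to 11.13. Its means were 10.71 ± 0.18 in Sav1+/-, 10.86 ± 0.12 in wild type, 10.92 ± 0.13 in Rassf1a-/- and 10.96 ± 0.13 in double genotype livers (SD, n = 4). For averaged Rassf1a loss the value was +0.16 ± 0.09 (limma SE, adjusted p = 0.424). Activation of IRF3 is by phosphorylation, which these arrays do not measure.

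Sqstm1 (probe set 10385572) encodes p62, the receptor that carries ubiquitinated cargo into autophagosomes. Its log2 signals were 12.53, 12.24, 12.34 and 12.32 in wild-type and 12.61, 12.51, 12.42 and 12.65 in Rassf1a-/- livers. They were 12.10, 12.46, 12.28 and 12.34 in Sav1+/- and 12.67, 12.77, 12.55 and 12.61 in double genotype livers. All 4 double genotype arrays lay above all 4 wild-type arrays, and 6 of the 8 arrays without Rassf1a lay above all 8 with it.

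Sqstm1 was the 1 of 9 members whose double genotype arrays did not overlap wild type, a separation seen in 10.8% of genes. No member separated in this way in Rassf1a-/- livers (10.9% of genes) or in Sav1+/- livers (4.68% of genes). The averaged Rassf1a effect on Sqstm1 was +0.27 ± 0.08 (limma SE, 1.21-fold, 95% interval 0.10 to 0.45, unadjusted p = 0.00428, adjusted p = 0.0956). The double genotype was +0.29 ± 0.12 over wild type (adjusted p = 0.279) and +0.35 ± 0.12 over Sav1+/- livers (adjusted p = 0.159), and Rassf1a-/- was +0.19 ± 0.12 over wild type (adjusted p = 0.594). For the averaged effect Sqstm1 passed with array weights (+0.29, limma adjusted p = 0.0258) and with limma's trended and robust prior (adjusted p = 0.0344). It also passed without Sav1+/- replicate 2 (+0.30, adjusted p = 0.0442). Those settings called 6.08%, 3.03% and 4.35% of all genes, beside 2.23% in the main fit. The Sqstm1 adjusted p over all alternatives ran from 0.0258 to 0.508, the highest with the 5 high-Y arrays left out (+0.25).

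**Figure D2:**
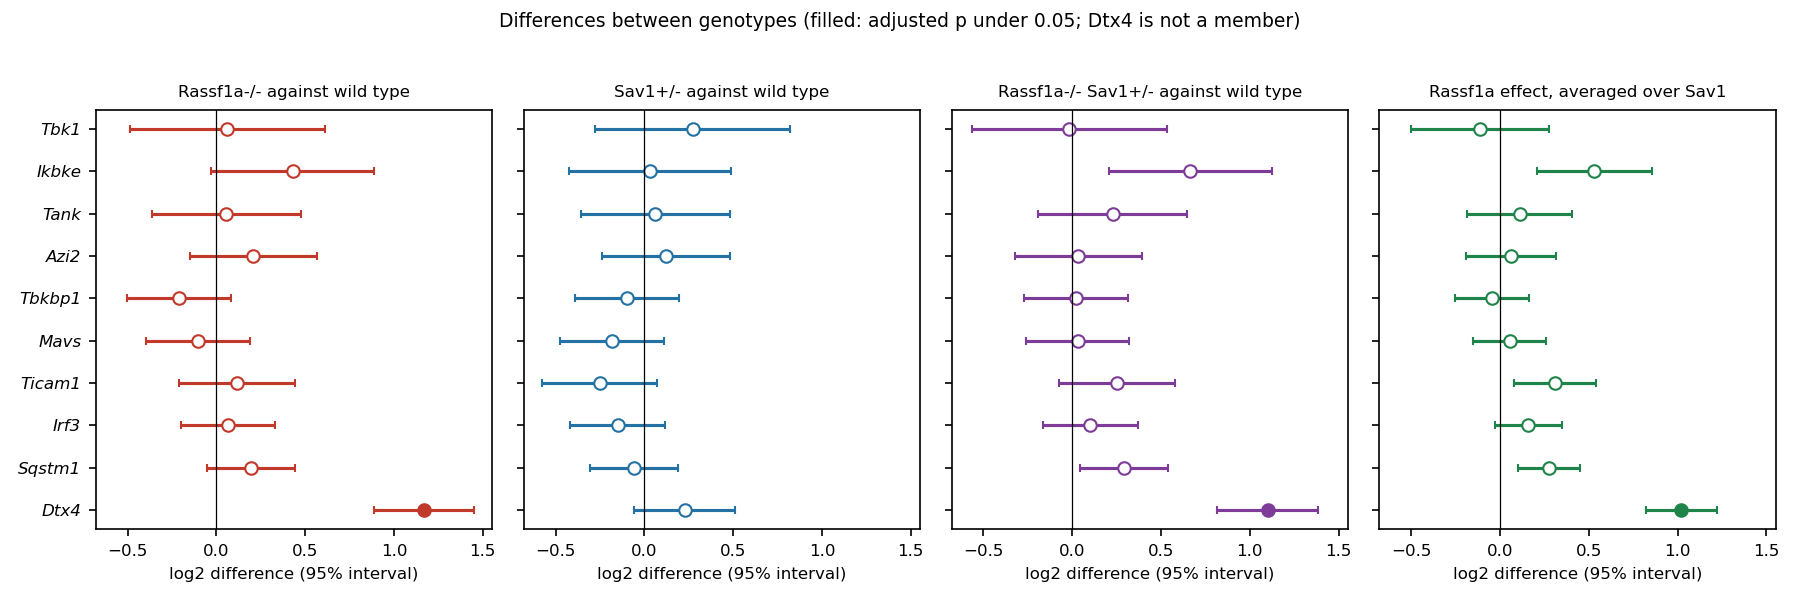
Log2 difference with its limma 95% interval for each measured member and Dtx4, in 3 genotypes against wild type and for Rassf1a loss averaged over the Sav1 states. Open circles did not pass an adjusted p of 0.05. In the averaged comparison the intervals of Ikbke (0.21 to 0.85), Ticam1 (0.08 to 0.54) and Sqstm1 (0.10 to 0.45) lie above 0 without passing after adjustment, and Dtx4 is filled in the 3 comparisons that involve Rassf1a loss.

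Dtx4 (probe set 10466304), from the list of negative regulators of TBK1 signalling, separated the genotypes by Rassf1a state. Its log2 signals were 8.28, 8.21, 7.99 and 7.90 in wild-type and 9.31, 9.13, 9.26 and 9.36 in Rassf1a-/- livers. They were 8.17, 8.55, 8.21 and 8.36 in Sav1+/- and 9.07, 9.47, 9.14 and 9.10 in double genotype livers. All 8 arrays without Rassf1a lay above all 8 with it, a separation of 8 against 8 that 0.776% of genes and 0 of 9 members showed in either direction.

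Dtx4 rose by 1.17 ± 0.13 on the log2 scale in Rassf1a-/- livers (limma SE, 2.25-fold, adjusted p = 0.000339) and by 1.10 ± 0.13 in double genotype livers (2.14-fold, adjusted p = 0.000739) against wild type. Averaged over Sav1 states, Rassf1a loss gave +1.02 ± 0.10 (adjusted p = 1.11e-05). In Sav1+/- livers Dtx4 was +0.23 ± 0.13 (adjusted p = 0.656), and the interaction was -0.30 ± 0.19 (adjusted p = 0.669). Dtx4 did not follow the Y-linked mean by limma's test (-0.02 ± 0.12, adjusted p = 0.986). Without the 5 high-Y arrays it was +1.03 in the double genotype without passing (adjusted p = 0.0832) and passed in the other 2 comparisons (adjusted p = 0.00452 and 0.00351). The clock genes moved with the same genotypes: Dbp, a clock output gene, fell by 2.67 for the averaged Rassf1a effect. The part of clock phase in the Dtx4 values was not tested.

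The wider pathway was described by 9 lists with 90 genes, of which 71 were tested. In Rassf1a-/- livers, in the double genotype and for the averaged Rassf1a effect 1 of 71 was called higher, Dtx4, and 0 lower. Over all genes 0.700%, 0.821% and 2.23% were called in these comparisons, so 1 call among 71 is not read as a result about the pathway. In Sav1+/- livers, for the averaged Sav1 effect and for the interaction, limma called 0 of 71, beside 0%, 0.0228% and 0% of all genes. The median of the 71 was +0.07, +0.01 and +0.10 in Rassf1a-/-, Sav1+/- and double genotype livers, beside -0.01, -0.02 and +0.05 over all genes. These counts grew with other settings, to 9 in Rassf1a-/- (12.7%) and 8 in double genotype livers (11.3%) with array weights, which called 6.83% and 9.36% of all genes. Among the other 9 tested negative regulators none passed in any comparison, and the list's median for the averaged Rassf1a effect was +0.09.

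Genes induced through IRF3 were mostly positive against wild type, with none called. Of 7 measured, 7 were positive in Rassf1a-/-, 6 in Sav1+/- and 7 in double genotype livers, with medians of +0.56, +0.56 and +0.59, and 0 of 7 were called in each. Over all genes 48.3%, 45.9% and 58.7% were positive in these comparisons. At an unadjusted limma p under 0.05 there were 2, 4 and 3 of 7, beside 10.4%, 9.15% and 13.6% of all genes. Cmpk2 is in each of these counts and among the positive genes each time, and its +0.59 is the double genotype median. That gene was above the filter level on 0 of 4 wild-type arrays, so the contrast with all genes is not used as support. The comparisons with wild type share its arrays, and the interaction had a median of -0.70. For the averaged Rassf1a effect 5 of 7 were positive, beside 55.1% of all genes, with a median of +0.22. The negative values were -0.01 for Ifit1 and -0.20 for Ifit3. At an unadjusted limma p under 0.05 there were 3 of 7, Cmpk2 among them, beside 15.3% of all genes.

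Cmpk2, a nucleotide kinase induced by interferon, averaged 6.86 ± 0.22 in wild type, 7.45 ± 0.32 in the double genotype, 7.61 ± 0.64 in Sav1+/- and 7.83 ± 0.27 in Rassf1a-/- livers (SD, n = 4). It lay above the filter level on 0 of 4 wild-type arrays and 4 of 4 Rassf1a-/- arrays, so it was kept through the genotypes where it is higher. Its Rassf1a-/- value of +0.97 ± 0.25 (limma adjusted p = 0.106, or 0.000913 to 0.318 over the alternatives, and 0.00926 without Sav1+/- replicate 1) is set against dim signals and supports nothing here. Oasl1, a member of the oligoadenylate synthetase-like family, was +0.51 ± 0.14 for the averaged Rassf1a effect (limma adjusted p = 0.0686, or 0.0404 to 0.224 over the alternatives).

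In the list of canonical IKK and NF-kappa B genes 0 of 6 were called in any comparison. Rela, which encodes the p65 subunit, was +0.53 ± 0.13 in double genotype livers (limma adjusted p = 0.0634). Its arrays there (11.20 to 11.52) lay above wild type (10.72 to 10.85), a separation seen in 10.8% of genes. Among other settings, it passed without Sav1+/- replicate 1 (adjusted p = 0.0269) or replicate 2 (0.0460) and with array weights (0.00534), in a range up to 0.833 over the alternatives. Ikbkg, the regulatory subunit of the canonical kinase complex, was +0.45 ± 0.19 there (adjusted p = 0.311). Over the alternatives that adjusted p ran from 0.0376 to 0.998, the lowest with array weights, which called 9.36% of all genes in the double genotype. The Ikbkg value was not particular to the double genotype. Against wild type it was +0.43 ± 0.19 in Rassf1a-/- (limma adjusted p = 0.430) and +0.40 ± 0.19 in Sav1+/- livers (adjusted p = 0.544). These comparisons share the wild-type arrays, whose Ikbkg mean was 9.32 ± 0.07 (SD). In the list of interferon genes and their transcription factors 0 of 7 were called, with Jak1, a kinase of the interferon receptors, at +0.51 ± 0.12 in the double genotype (adjusted p = 0.0649, or 0.0329 without Sav1+/- replicate 1 and 0.00751 to 0.773 over the alternatives). The interaction value of Ifnar2, an interferon receptor subunit, was +0.47 ± 0.17 (adjusted p = 0.420).

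Around p62, 0 of 12 selective autophagy receptors and partners were called in any comparison. Atg13, part of the complex that starts autophagosome formation, was +0.68 ± 0.19 for the averaged Rassf1a effect (limma adjusted p = 0.0640). Its arrays ran from 10.39 to 10.83 in wild type and from 11.18 to 11.75 without Rassf1a, but the Sav1+/- arrays spread from 9.97 to 11.47. It passed in 7 of 25 alternatives. These included leaving out Sav1+/- replicate 3 (limma adjusted p = 0.0329) or 4 (0.0297), and Y-linked signal as a covariate (0.0220, the lowest of a range up to 0.137). Pink1, a kinase of mitophagy, was -0.36 ± 0.15 in Sav1+/- livers (adjusted p = 0.448). Of 9 KEAP1 and NRF2 genes 0 were called: Hmox1, which encodes haem oxygenase, was +0.84 ± 0.26 in double genotype livers (adjusted p = 0.153, or 0.0243 to 0.998 over the alternatives), and Srxn1, a sulfiredoxin, had an averaged Sav1 value of -0.32 ± 0.10 (adjusted p = 0.165, or 0.0275 to 0.9996 over the alternatives).

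Upstream of the kinase, 0 of 8 sensors and 0 of 7 ubiquitin ligases and scaffolds were called in any comparison. Ly96, the Toll-like receptor partner MD-2, was +0.73 ± 0.16 in Sav1+/- livers (limma adjusted p = 0.149), with arrays of 10.54 to 11.05 against 9.99 to 10.05 in wild type. Such a separation was seen in 4.68% of genes, and with Sav1+/- higher in 0.441%. The Rassf1a-/- arrays (10.28 to 10.67) also lay above wild type, a separation seen in 10.9% of genes. Double genotype arrays ran from 9.93 to 10.67. Cgas, the cytosolic DNA sensor, had an averaged Sav1 value of +0.39 ± 0.18 (adjusted p = 0.314). Tradd and Fadd, death-domain adaptors, were -0.66 ± 0.16 and -0.46 ± 0.15 in Sav1+/- livers (adjusted p = 0.182 and 0.332). Of the 5 genes on the Ral and exocyst route, along which RalB engages TBK1, 0 were called. Rala was -0.45 ± 0.20 and Ralgds +0.30 ± 0.28 in the interaction (adjusted p = 0.504 and 0.793).

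**Figure D3:**
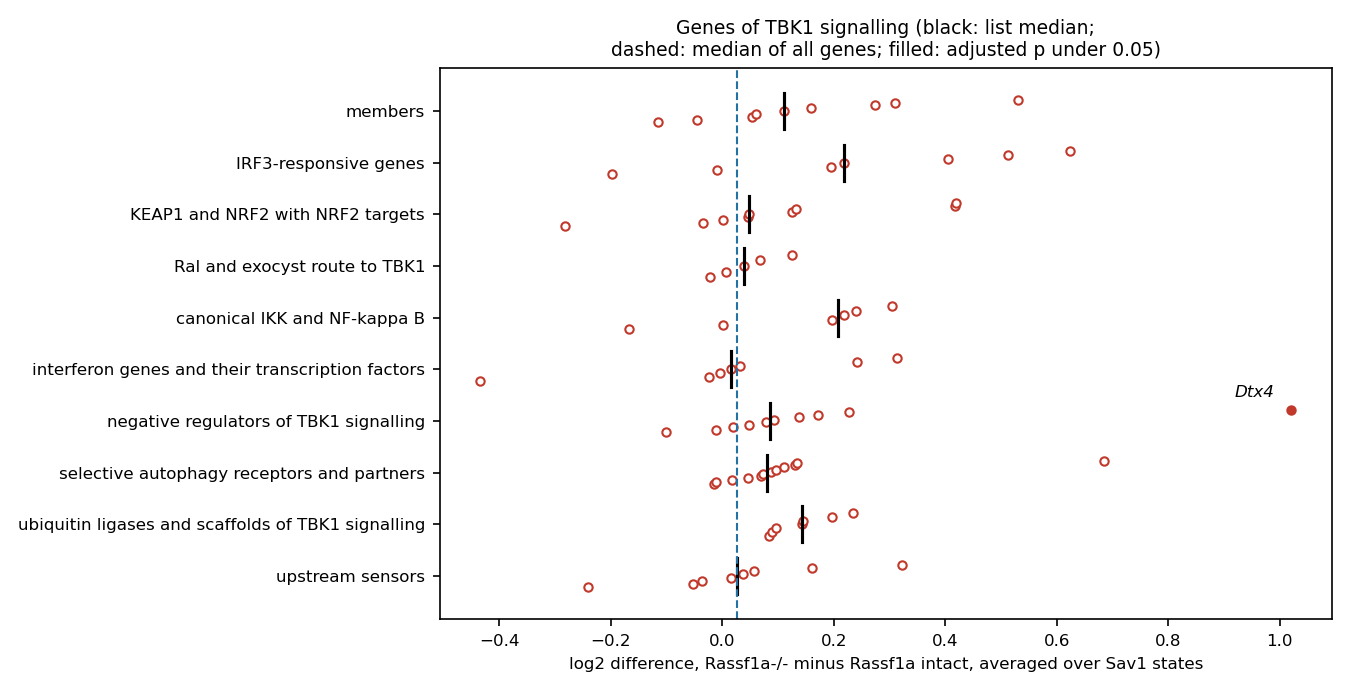
Log2 difference for Rassf1a loss averaged over the Sav1 states, 1 circle per tested gene of the member list and of 9 pathway lists, with list medians as black bars and the median of all genes (0.03) as a dashed line. Dtx4 at 1.02 is the only filled circle, and Atg13 at 0.68 is the highest open one.

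Across the 16 arrays the genes most like Tbk1 by Pearson r, of 13151 ranked, were Wasl (0.921), Hnrnpdl (0.915), Ptch1 (0.911), Fxr1 (0.909) and Atp6v1c1 (0.908). Over the 11 arrays of low Y-linked signal their r was 0.969, 0.934, 0.952, 0.926 and 0.922. These arrays share the outlying Sav1+/- replicate 2. Without it the 5 values were 0.751, 0.751, 0.772, 0.774 and 0.799, and their ranks were 188, 184, 109, 98 and 54, so the order rests on that array.

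Among the members, Azi2 was most like Tbk1 (r = 0.758 over 16 arrays, rank 402, and 0.663 without Sav1+/- replicate 2). Mavs had 0.494, Irf3 0.314, Ikbke 0.217, Sqstm1 0.174 and Tank 0.101. Ticam1 had -0.133 and turned to 0.509 without Sav1+/- replicate 2. Tbkbp1 ran opposite to Tbk1 both with and without that array (-0.568 and -0.611). These correlations are descriptions over arrays that share genotypes, sex-linked signal and array quality.

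**Figure D4:**
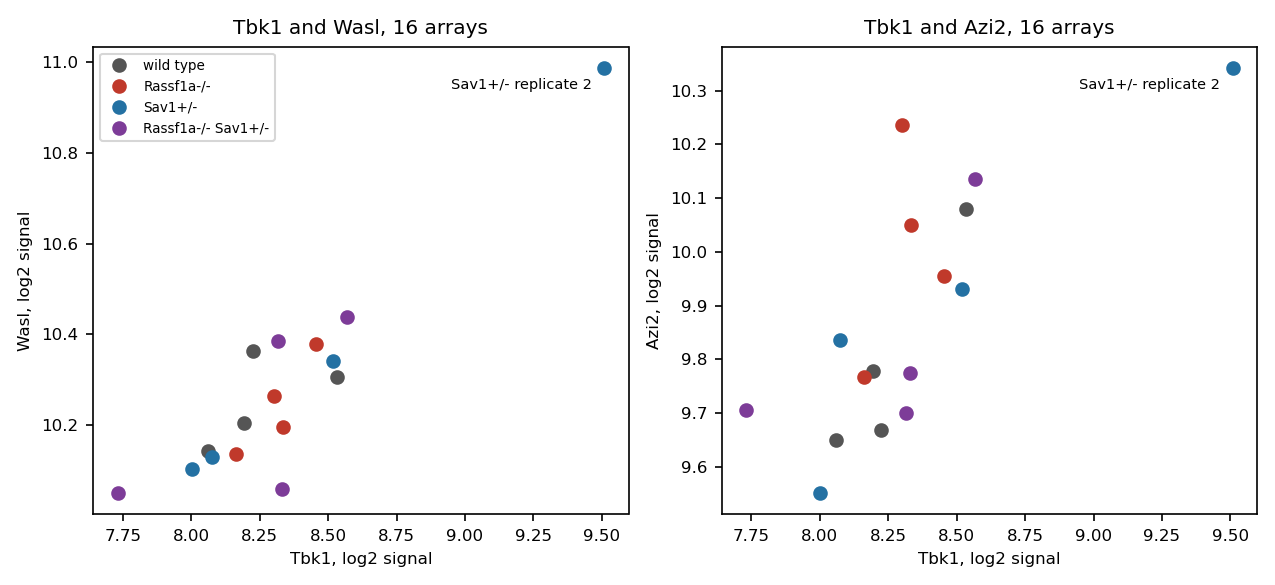
Log2 signal of Wasl (left) and Azi2 (right) against that of Tbk1 on the 16 arrays, coloured by genotype. Sav1+/- replicate 2, at a Tbk1 signal of 9.51, stands apart from the other 15 arrays, which lie between 7.73 and 8.57.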

How the data were processed

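RNA from 16 liver samples was measured on Affymetrix whole-transcript arrays. Per the submitters' processing notes, the authors used Affymetrix Expression Console, and the deposited values are log2 signals per probe set. The sources used here do not give its version or its summarisation, background correction and normalization methods. Precision is limited by the 4 arrays per genotype.

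Of 35556 probe sets, 21789 name 1 gene in the platform annotation (21698 matched the RefSeq gene list by gene ID), while 1621 name several genes and were left out. Probe sets at or above the 40th percentile of an array's single-gene probe sets on at least 4 arrays were kept, and that of highest mean stood for its gene. Genes were fitted with limma 3.58.1 (R 4.3.3; data.table, version 1.17.8) as 4 genotype means, leaving 12 residual degrees of freedom. Tests were two-sided, with Benjamini-Hochberg adjustment over 13152 genes and calls under 0.05. The code was tested on simulated data.

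All members are named, as are called list genes or, in a list with none, up to 2 genes with the smallest p, and the 5 genes most like Tbk1. The members and lists were chosen with earlier results of these data known. Alternatives covered the filter, probe sets per gene, compared genotypes only, scaling, array weights, eBayes options, Y-linked signal and leaving out each array. Those for list genes and for the Y-linked term were added after the data were seen. No paired fit was made.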

Additional observations from a re-analysis of the deposited data

Results flagged for a closer look

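In 3 of 40 groups of 4 arrays (the 9 members and Dtx4 in each genotype) 1 array stood apart by Dixon's criterion, which sets the gap to the nearest array against the group's range at the 95% level. Chance alone marks about 1 in 20 groups. Azi2 was 10.1 on double genotype replicate 4, with 9.77 the next highest. Irf3 was 11.04 on wild-type replicate 1, with 10.8 the next. Mavs was 11.5 on wild-type replicate 2, below the other 3 at 11.7. The Tbk1 value of 9.51 on Sav1+/- replicate 2 did not meet the criterion.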

How the results depend on the processing

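No paired analysis was possible because samples carry no replicate number in their labels. Of 513 member values under alternatives other than leaving out 1 array, 484 kept their direction and their side of the threshold, 25 turned in sign and 4 passed the threshold. Of 96 Dtx4 values without 1 array, all 96 kept both. The cause of the changes below was not tested. Array weights called 1231 genes (9.36%) in the double genotype against wild type in place of 108, and 800 (6.08%) in place of 293 for the averaged Rassf1a effect; without the 5 high-Y arrays the counts were 6 and 80.

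With array weights 1 member was called in the double genotype (Ikbke), and for the averaged Rassf1a effect 2 (Ikbke and Sqstm1), or 1 with the trended and robust prior (Sqstm1), which called 3.03% of genes. Leaving out 1 array gave 0 to 2 there, with 1.46% to 4.35% of genes called. By the Y-linked term 1 member was called (Tank) with the stricter filter, quantile normalization or the trended and robust prior, which called 6.07%, 5.07% and 5.19% of genes. When 1 array was left out that term called 0 to 1 members and 3.18% to 5.36% of genes. Called pathway genes in Rassf1a-/- livers numbered 4 with only the compared genotypes (1.44% of all genes called) and 9 with array weights (6.83%). Without 1 array they numbered 1 to 2 (0.411% to 0.973%). In the double genotype there were 3 with the stricter filter, quantile normalization or the trended and robust prior (1.99%, 1.25% and 1.25% of all genes). There were 2 with only the compared genotypes (0.608%), 8 with array weights (9.36%) and 0 without the high-Y arrays (0.0456%). Without 1 array there were 1 to 5 (0.297% to 1.59%). For the averaged Rassf1a effect there were 4 with the stricter filter (5.03% of all genes), 3 with medians subtracted (1.95%) and 5 with array weights (6.08%). There were 2 with no filter (1.06%), the other prior (3.03%), the Y-linked covariate (2.71%) or the high-Y arrays left out (0.608%). Without 1 array there were 1 to 2 (1.46% to 4.35%). For the averaged Sav1 effect array weights gave 4, with 11.5% of all genes.

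The largest value that turned in sign was -0.21, for Tank in Sav1+/- livers without the high-Y arrays. With Y-linked signal as a covariate, Tank was -0.083, -0.19 and -0.0050 in Rassf1a-/-, Sav1+/- and double genotype livers and -0.055 for the averaged Sav1 effect. Ikbke was -0.15 in Sav1+/- and Tbk1 0.042 in double genotype livers, and averaged Sav1 values were -0.0030 for Sqstm1, 0.017 for Azi2 and 0.033 for Mavs. Without the high-Y arrays, Tank was -0.067 in Rassf1a-/- and -0.21 in Sav1+/- livers, and Ikbke -0.011 in Sav1+/- livers. Averaged Sav1 values there were -0.030 (Sqstm1), 0.044 (Azi2), -0.055 (Tank) and 0.024 (Irf3), and the Ralgds interaction was -0.034. With medians subtracted, double genotype values were -0.0051 (Azi2), -0.018 (Tbkbp1) and -0.010 (Mavs), and Sqstm1 was -0.046 for the averaged Sav1 effect. Quantile normalization gave -0.0030 for Ikbke in Sav1+/- livers, -0.016 for Tbkbp1 in the double genotype and 0.030 for Mavs averaged over Rassf1a states. Array weights gave -0.035 for Mavs in the double genotype and 0.0013 for Ticam1 for the averaged Sav1 effect.

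Leaving out 1 array at a time, 17 member values turned in sign at least once. In Rassf1a-/- livers Tbk1 ran from -0.0047 to 0.15 and Tank from -0.067 to 0.15. In Sav1+/- livers Tbk1 ran from -0.055 to 0.45, Ikbke from -0.072 to 0.17, Sqstm1 from -0.11 to 0.0050, Azi2 from -0.021 to 0.24 and Tank from -0.054 to 0.20. In the double genotype Tbk1 ran from -0.13 to 0.15, Azi2 from -0.067 to 0.13, Tbkbp1 from -0.036 to 0.093 and Mavs from -0.025 to 0.082. The averaged Rassf1a effect on Tbk1 ran from -0.20 to 0.049. Averaged Sav1 values ran from -0.066 to 0.19 (Tbk1), -0.0076 to 0.052 (Sqstm1), -0.097 to 0.035 (Azi2) and -0.081 to 0.012 (Mavs), and the Tank interaction from -0.028 to 0.23.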
